A study of Mus musculus with 32 samples.

Results

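The 31 genes described here encode the mouse machinery that takes up, binds, activates and oxidises fatty acids, and the coat, lipase and synthesis proteins of the lipid droplets in which fatty acids are stored. They were chosen by name, for function, but with earlier results of these data known. Counts of members beside shares of all genes are therefore descriptions and not tests. All 31 were present among the 24013 genes of the stage table and the 22536 genes of each knockdown table. The values are FPKM (fragments per kilobase of transcript, scaled to library depth) from RNA sequencing of very small samples by a modified Smart-Seq2 protocol, which copies whole transcripts. The stage table gave the authors' 1 value per gene for 8 stages: the inner cell mass (ICM, from 3 samples), and, from 2 samples each, the MII oocyte, zygote, early 2-cell, 2-cell, 4-cell and 8-cell embryo and mouse embryonic stem cells (mESC), so stage values carry no error and no test. The knockdown tables gave 1 value per library for 8-cell embryos (4 controls, 4 with Nr5a2 knocked down) and for blastocysts (3 controls, 4 with Gata4 knocked down). Oocytes were from C57BL/6N females at 20 h after hCG, and every embryo, injected ones included, was a C57BL/6N x DBA/2N hybrid from a superovulated female. The recorded doses for uninjected embryos were 5 IU of PMSG and 5 IU of hCG. No dose is recorded for the oocytes or the injected embryos. ICM cells were isolated by immunosurgery, a method meant to remove the trophectoderm. The stem cells were the R1 line alone, grown with LIF and serum. Knockdown embryos had been injected with siRNA and cultured in CZB medium with glutamine. What the control embryos received, and how many embryos went into a library, are not given in the sources used here. Nothing in the labels ties libraries to separate litters or cultures, so the p-values reflect the spread between libraries alone, which may be technical.

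Long-chain fatty acids are joined to coenzyme A by acyl-CoA synthetases, carried into mitochondria by the carnitine shuttle, and shortened there by repeated rounds of a dehydrogenase, a hydratase, a hydroxyacyl dehydrogenase and a thiolase. Electrons from the first step of each round pass through the electron transfer flavoprotein (ETF) and its dehydrogenase to the respiratory chain. Fatty acids that are not burned are esterified to triglyceride and held in droplets coated by perilipins, from which lipases release them, and such droplets are a known energy store of mammalian oocytes and early embryos. NR5A2 is an orphan nuclear receptor, active in liver and early embryos, and GATA4 is a transcription factor of the primitive endoderm.

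Upstream sequences were taken from RefSeq on build GRCm38.p6, as the 250 bases before each gene start, and 26 of the 31 genes matched 28 such windows. Acaa2, Decr1, Dgat1, Dgat2 and Fabp5 were not matched. The motif TCAAGGTCA, the form bound by NR5A2, was searched on both strands and lay in 0 member windows, against 0.387% of all 32851 windows. The shorter AAGGTCA, which is contained in it, lay in 4.08% of all windows and in 1 member window, that of Acadm. The direct repeat AGGTCANAGGTCA, bound by PPAR and RXR pairs, lay in 0.0335% of all windows and in 0 member windows. A match is only a match of letters, and a window without one says nothing of more distant sites. Fabp3 is shown because it is the member called in the Nr5a2 knockdown (chr4:130308488-130308737, plus strand). Acadm is shown for its match (chr3:153944644-153944893, minus strand), whose capitals are the reverse complement of AAGGTCA, at position -249 from the start. Hadha and Hadhb lie head to head on opposite strands, and the third sequence is all 272 bases between their starts (chr5:30154981-30155252, plus strand). Its capitals mark the 228 bases that lie within 250 bases of both starts.
Fabp3: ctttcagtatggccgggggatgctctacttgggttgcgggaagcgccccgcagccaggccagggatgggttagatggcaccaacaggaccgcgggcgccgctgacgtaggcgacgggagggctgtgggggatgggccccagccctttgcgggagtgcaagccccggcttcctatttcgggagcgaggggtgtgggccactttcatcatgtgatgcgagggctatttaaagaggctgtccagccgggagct
Acadm: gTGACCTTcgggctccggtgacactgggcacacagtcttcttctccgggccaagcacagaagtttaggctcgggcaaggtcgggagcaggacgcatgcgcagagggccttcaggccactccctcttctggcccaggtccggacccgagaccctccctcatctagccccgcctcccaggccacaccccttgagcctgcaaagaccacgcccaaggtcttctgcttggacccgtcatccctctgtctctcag
Hadha and Hadhb: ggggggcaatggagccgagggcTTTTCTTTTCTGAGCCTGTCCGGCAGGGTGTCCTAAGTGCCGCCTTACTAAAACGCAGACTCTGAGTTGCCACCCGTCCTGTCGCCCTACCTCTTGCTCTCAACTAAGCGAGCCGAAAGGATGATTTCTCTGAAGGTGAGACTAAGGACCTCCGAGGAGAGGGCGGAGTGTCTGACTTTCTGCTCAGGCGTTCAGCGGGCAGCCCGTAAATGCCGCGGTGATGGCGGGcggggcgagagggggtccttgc

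FPKM values added up to 285293 to 308689 per 8-cell knockdown library, 237292 to 366359 per blastocyst library and 234738 to 495643 per stage. Depth in reads is not known here. Steps between low FPKM values put the deepest 8-cell library at 2.87 times the depth of the shallowest. Nr5a2 stood at 13.1 to 25.2 FPKM in the control libraries and at 3.76 to 6.72 FPKM in the knockdown libraries. Gata4 stood at 0.716 to 5.44 FPKM in controls, at 0.368 FPKM in knockdown 2 and was listed at 0 in the other Gata4 knockdown libraries. The blastocyst libraries fell into 2 kinds: Rn45s, the precursor of ribosomal RNA, was listed at 0 in control 2 and knockdowns 1 and 2 and lay between 37959 and 44718 FPKM in the other four. Of the marker lists, 7 oocyte markers went with the labels, at a sum of 11425 FPKM in MII oocytes and 15.2 FPKM in ICM. The 9 epiblast and stem cell markers did too, at 13689 FPKM in ICM and 9487 FPKM in mESC. The 8 primitive endoderm markers summed to more in MII oocytes (255 FPKM) than in ICM (88.5 FPKM) or mESC (1.89 FPKM). Cumulus and granulosa markers summed to 25.3, 14.8 and 11.3 FPKM in MII oocytes, zygotes and early 2-cell embryos, with 1 of 13 at 1 FPKM or more in each. Fibroblast markers summed to at most 0.788 FPKM in any stage. The trophectoderm markers, 8 genes, summed to 195 FPKM in ICM, with all 8 at 1 FPKM or more, and to 3034 to 4351 FPKM in control blastocysts. They summed to 63.5 FPKM in 8-cell embryos and 17.3 FPKM in mESC. Whether trophectoderm cells remained in the ICM samples, and their part in the ICM values below, was not tested.

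More of the 31 genes reached 5 FPKM in ICM than in any other stage, and the median level of the 31 was highest there. Of the 31, 13 were at 5 FPKM or more in MII oocytes, 10 in zygotes, 9 in early 2-cell, 14 in 2-cell, 16 in 4-cell and 19 in 8-cell embryos, 25 in ICM and 14 in mESC. Over all genes that share stayed between 18.8% and 23.7%. The median level of the 31 was 2.21 FPKM in MII oocytes, 2.71 at the 2-cell stage, 8.17 at the 8-cell stage, 21.7 in ICM and 3.67 in mESC. Of the 28 members at 5 FPKM or more in some stage, 18 were highest in ICM, where 17.7% of all such genes were highest. Hadha, Acsl1 and Acsl3 were highest in MII oocytes, where 26.2% of all such genes were. Pnpla2 was highest at the early 2-cell stage. The 4-cell stage was the highest for Slc25a20, Eci1 and Dgat2, and the 8-cell stage for Acadm, Acads and Acsl4. The 3 members that never reached 5 FPKM were Decr1, Acsl5 and Lipe.

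**Figure D1:**
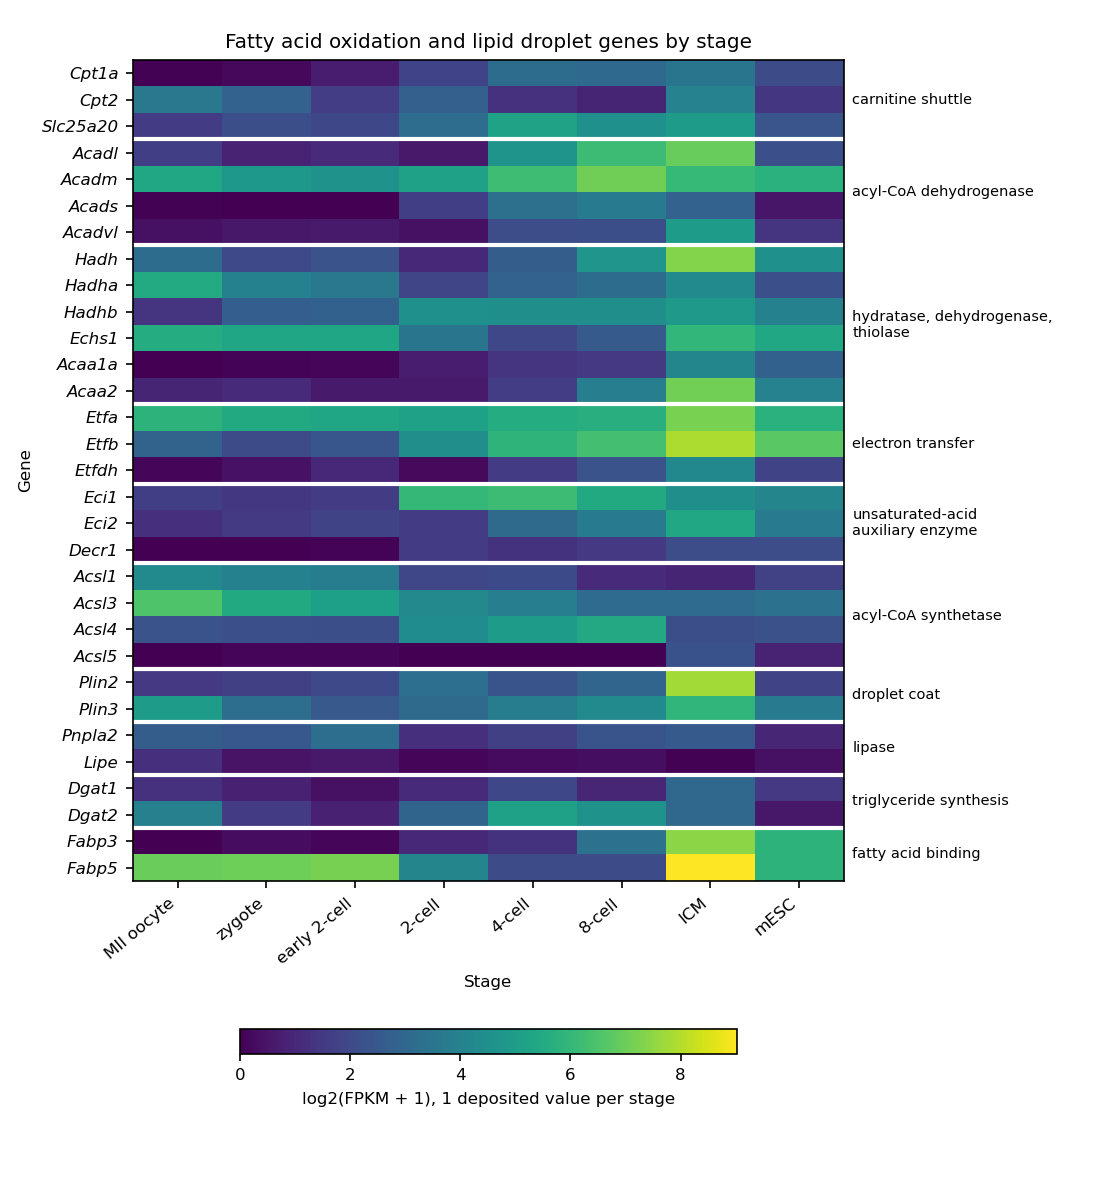
Level of each of the 31 genes (rows, grouped by role) in each stage (columns) as log2(FPKM + 1), 1 deposited value per stage. The ICM column is the brightest for 18 of the 28 genes that reach 5 FPKM, among them Fabp5 at 519 FPKM, Etfb at 237 FPKM and Plin2 at 219 FPKM.

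Between neighbouring stages a gene was counted as higher or lower where log2(FPKM + 1) differed by 1 or more and the higher stage had 5 FPKM or more. The shares in brackets are of all genes, most of which were below 5 FPKM in both stages and could not be counted. More of the members reached that level, so the bracketed shares overstate the contrast with the members. From MII oocyte to zygote 1 member, Hadhb, was higher (3.27% of all genes) and 5 were lower (5.64% of all genes), namely Hadh, Hadha, Acsl3, Plin3 and Dgat2. From zygote to early 2-cell 0 members were higher (1.31% of all genes) and Cpt2 alone was lower (2.10%). From early 2-cell to 2-cell, when the embryonic genome becomes active, 8 were higher (10.5%) and 5 were lower (10.4%). Among genes at 5 FPKM or more in either stage, 8 of 17 members and 2519 of 7252 genes were higher. Lower were 5 of these members and 2489 of these genes. From 2-cell to 4-cell 9 were higher (6.58%) and 3 were lower (4.73%), and the 9 included Cpt1a, Slc25a20 and the dehydrogenases Acadl, Acadm and Acads. From 4-cell to 8-cell Acadl, Hadh, Acaa2 and Fabp3 were higher (1.72%) and 0 members were lower (2.43%).

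The step from 8-cell embryo to ICM had 16 members higher (7.65% of all genes) and 3 lower, Acadm, Acsl4 and Dgat2 (6.03%). Among genes at 5 FPKM or more in either stage, 16 of 26 members and 1837 of 6611 genes were higher. Lower were 3 of these members and 1447 of these genes. The median difference of the 31 was 1.5 on the log2(FPKM + 1) scale. Among genes at 5 FPKM or more in either stage, it was 1.62 over 26 members and 0.097 over all genes. From ICM to mESC 0 members were higher (3.02%) and 20 were lower (10.5%), with a median difference of -1.57. Among genes at 5 FPKM or more in either, 20 of 25 members and 2527 of 6224 genes were lower. Values in mESC were lower in general. Among genes at 5 FPKM or more in either, the median difference was -0.72 over all genes and -2.08 over the 25 such members. With stages scaled to 1 median the members lower in mESC numbered 13. The share of all genes lower at that scaling was not computed. ICM and R1 cells differ in source and culture as well as in stage, and these cannot be told apart.

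**Figure D2:**
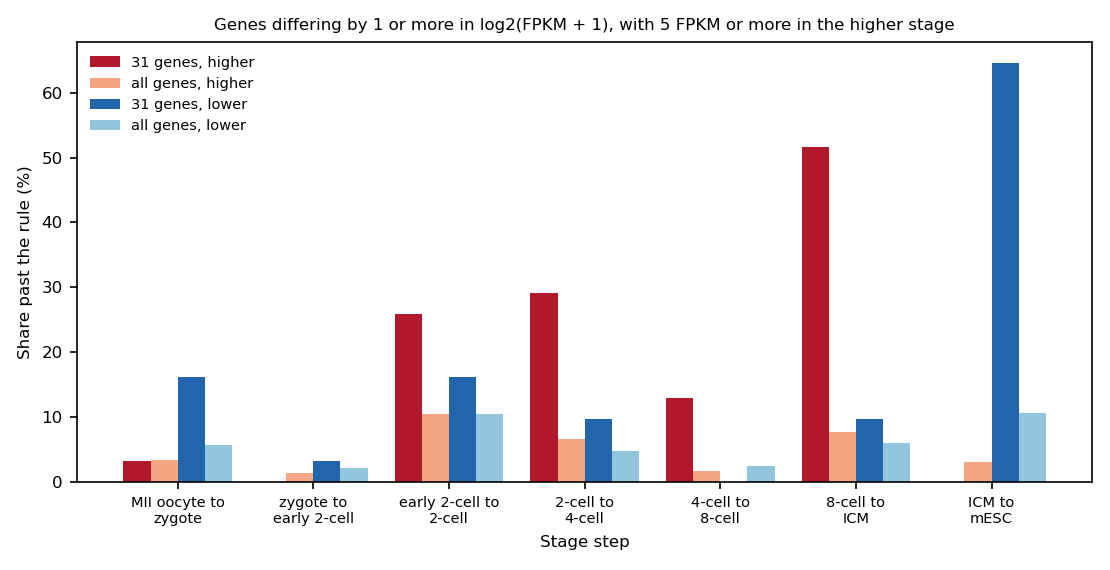
Share of the 31 genes (dark bars) and of all genes (light bars), in percent, that were higher (red) or lower (blue) by 1 or more in log2(FPKM + 1) with at least 5 FPKM in the higher stage, for each stage step. The tallest bars are the 16 members higher in ICM than at the 8-cell stage and the 20 lower in mESC than in ICM. The light bars include the many genes below 5 FPKM in both stages, which could not be counted.

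Among the fatty acid binding proteins, which carry fatty acids through the cytosol, the 2 members differed in time. Fabp5, the epidermal form, stood at 123 FPKM in MII oocytes, 131 in zygotes, 144 in early 2-cell, 16.1 in 2-cell, 3.27 in 4-cell and 3.26 in 8-cell embryos, 519 in ICM and 56.3 in mESC. It was thus high in the oocyte, low from the 4-cell to the 8-cell stage and highest of all members in the ICM. Fabp3, the heart form, was listed at 0 in MII oocytes and stood at 0.221 FPKM in zygotes, 0.0935 in early 2-cell, 1.0 in 2-cell, 1.48 in 4-cell and 9.57 in 8-cell embryos, 175 in ICM and 56.7 in mESC. It had the widest stage range of the 31, 7.46 on the log2(FPKM + 1) scale, followed by Fabp5 with 6.93. Each of these genes has a copy with at least 95% identity over its coding sequence (Fabp3-ps1 with 99.2%, Gm6166 and Gm14328), so reads can be assigned to either and their levels are uncertain.

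The acyl-CoA synthetases, which activate fatty acids, had their highest summed level in the MII oocyte. Their summed level went from 115 FPKM in MII oocytes to 40.8 at the 2-cell stage and was 16.2 in ICM and 16.4 in mESC. Acsl3, a form found on the endoplasmic reticulum and nascent droplets, went from 92.9 FPKM in MII oocytes through 33.0 in early 2-cell to 7.96 in 8-cell embryos. Acsl4, which prefers arachidonic acid, went the other way, from 3.48 FPKM in early 2-cell through 20.2 in 2-cell to 42.9 in 8-cell embryos, and was 3.51 in ICM. In FPKM Acsl3 was 23.6 times Acsl4 in MII oocytes, Acsl4 was 5.39 times Acsl3 in 8-cell embryos, and Acsl3 was again 2.28 times Acsl4 in ICM. In injected 8-cell control embryos, from a table normalised apart, Acsl4 was 1.01 to 2.86 times Acsl3, at 9.76 to 21.0 FPKM. Acsl1, the main form of liver and heart, went from 18.3 FPKM in MII oocytes to 1.12 in 8-cell embryos. Acsl5 was at or near 0 up to the 8-cell stage and was 3.81 FPKM in ICM.

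In the carnitine shuttle the 3 members differed in time. Cpt1a, the outer-membrane transferase that controls entry, was 0.0456 FPKM in MII oocytes, 2.51 in 2-cell, 8.18 in 4-cell and 7.38 in 8-cell embryos, 10.3 in ICM and 3.17 in mESC. Slc25a20, the carnitine and acylcarnitine translocase of the inner membrane, was 1.96 FPKM in MII oocytes, 35.7 in 4-cell embryos and 30.4 in ICM. Cpt2, the transferase on the inner side, went the other way, from 11.2 FPKM in MII oocytes to 0.925 in 8-cell embryos, and was 15.1 in ICM. At the 8-cell stage the RNAs of Cpt1a and Slc25a20 were therefore measured at 7.38 and 22.2 FPKM beside a low level of Cpt2 RNA. Protein was not measured.

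The acyl-CoA dehydrogenases catalyse the first step of each round and differ in the chain length they accept. Acadm, the medium-chain enzyme, was present in every stage, from 23.7 FPKM in early 2-cell to 132 in 8-cell embryos, with 64.2 in ICM. Acadl, the long-chain enzyme, stood at 2.21 FPKM in MII oocytes, 0.826 in zygotes, 1.15 in early 2-cell, 0.518 in 2-cell, 24.2 in 4-cell and 72.7 in 8-cell embryos, 120 in ICM and 3.64 in mESC. It was thus low until the 2-cell stage and was higher in each later embryo value. Acads, the short-chain enzyme, was listed at 0 in zygotes and early 2-cell embryos and peaked at 12.1 FPKM in 8-cell embryos. Acadvl, the very-long-chain enzyme of the inner membrane, stayed at 3.50 FPKM or less up to the 8-cell stage and was 29.6 in ICM. In injected 8-cell control embryos, normalised apart, it stood at 5.31 to 11.7 FPKM.

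Several enzymes of the later steps were far higher in the ICM than in any earlier stage. Hadh, the short- and medium-chain hydroxyacyl dehydrogenase, stood at 8.10 FPKM in MII oocytes, 2.96 in zygotes, 3.98 in early 2-cell, 1.01 in 2-cell, 5.36 in 4-cell and 24.9 in 8-cell embryos, 160 in ICM and 22.4 in mESC. Acaa2, the mitochondrial thiolase, stood at 0.907, 1.16, 0.579, 0.568, 2.09 and 13.7 FPKM in these embryo stages in the same order, at 136 in ICM and at 14.9 in mESC. Both had their lowest value at the 2-cell stage and their highest in the ICM. In injected 8-cell control embryos, normalised apart, Hadh stood at 25.1 to 51.6 FPKM and Acaa2 at 4.43 to 9.03 FPKM. Echs1, the short-chain hydratase, was 47.2 FPKM in MII oocytes, 2.81 in 4-cell embryos and 62.1 in ICM, so its trough came later. Acaa1a, the peroxisomal thiolase, was 1.81 FPKM or less up to the 8-cell stage and 16.8 in ICM, but is 96.5% identical to Acaa1b over its coding sequence.

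Hadha and Hadhb encode the 2 kinds of subunit of the mitochondrial trifunctional protein, which acts on long chains, and share the upstream stretch shown above. Hadha was 44.4 FPKM in MII oocytes, 14.6 in zygotes, 11.2 in early 2-cell, 2.71 in 2-cell, 6.20 in 4-cell and 8.17 in 8-cell embryos, 18.7 in ICM and 3.64 in mESC. Hadhb was 1.54, 5.50, 6.00, 22.2, 21.6, 21.4, 28.4 and 14.6 FPKM in the same order. In FPKM Hadha was 28.7 times Hadhb in MII oocytes, while Hadhb was 8.21 times Hadha in 2-cell embryos and 1.52 times in ICM. Hadhb is uncertain, since Gm13910 and Gm9108 match its whole coding sequence at 99.8% and 97.6%. In injected 8-cell control embryos, from a table normalised apart, Hadhb stood at 3.61 to 5.94 FPKM and Hadha at 13.5 to 20.6, the reverse of their order in uninjected 8-cell embryos.

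ETF takes electrons from the acyl-CoA dehydrogenases and passes them to the respiratory chain through Etfdh, its ubiquinone oxidoreductase. Etfa was the steadier subunit, at 56.1 FPKM in MII oocytes, 43.6 in zygotes, 38.6 in early 2-cell, 34.6 in 2-cell, 47.0 in 4-cell and 50.9 in 8-cell embryos, 146 in ICM and 53.4 in mESC. Etfb stood at 6.26, 3.19, 4.29, 21.0, 57.9 and 78.4 FPKM in those embryo stages, at 237 in ICM and at 105 in mESC. Etfa was 8.95 times Etfb in MII oocytes and 13.7 times in zygotes, and Etfb was 1.63 times Etfa in ICM. Etfb is uncertain, as Gm45233 matches 79.2% of its coding sequence at 99.7%. Etfdh was 3.99 FPKM or less up to the 8-cell stage and 17.6 in ICM.

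The auxiliary enzymes let double bonds pass through the cycle. Eci1, the mitochondrial enoyl-CoA isomerase, was 2.06 FPKM in early 2-cell and 64.2 in 2-cell embryos, then 72.7 in 4-cell and 43.7 in 8-cell embryos, 21.7 in ICM and 16.3 in mESC. Its highest value was that of 4-cell embryos, and the step from early 2-cell to 2-cell embryos was its widest (log2(FPKM + 1) difference 4.41). Eci2, an isomerase of peroxisomes and mitochondria, was 2.64 FPKM or less up to the 2-cell stage and 41.1 in ICM. Decr1, the mitochondrial dienoyl-CoA reductase, did not pass 3.42 FPKM.

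Of the droplet proteins, the coat gene Plin2 had the widest stage range, 6.30 on the log2(FPKM + 1) scale. Plin2, the coat protein of droplets in most tissues, stood at 1.79 FPKM in MII oocytes, 2.25 in zygotes, 2.97 in early 2-cell, 8.83 in 2-cell, 4.12 in 4-cell and 6.60 in 8-cell embryos, 219 in ICM and 2.64 in mESC. Plin3, a coat protein that also occurs free in the cytosol, was 30.6 FPKM in MII oocytes, 4.69 in early 2-cell and 18.5 in 8-cell embryos, 60.2 in ICM and 12.3 in mESC. Plin3 was 17.0 times Plin2 in MII oocytes and 2.80 times in 8-cell embryos, and Plin2 was 3.63 times Plin3 in ICM. Pnpla2, the lipase that starts triglyceride breakdown, peaked at 8.60 FPKM in early 2-cell embryos and was 4.82 in ICM. Lipe, hormone-sensitive lipase, did not pass 1.34 FPKM.

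Dgat1 and Dgat2 catalyse the last step of triglyceride synthesis with unrelated proteins. Dgat2 was 14.3 FPKM in MII oocytes, 0.787 in early 2-cell, 6.49 in 2-cell, 34.7 in 4-cell and 23.3 in 8-cell embryos, 7.31 in ICM and 0.497 in mESC. Dgat1 was at most 2.85 FPKM up to the 8-cell stage and 7.30 in ICM. Dgat2 was 24.4 times Dgat1 in 8-cell embryos, and in ICM the values stood side by side. In injected 8-cell control embryos, normalised apart, Dgat2 was 6.37 to 18.1 times Dgat1, which stood at 2.65 to 6.06 FPKM.

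**Figure D3:**
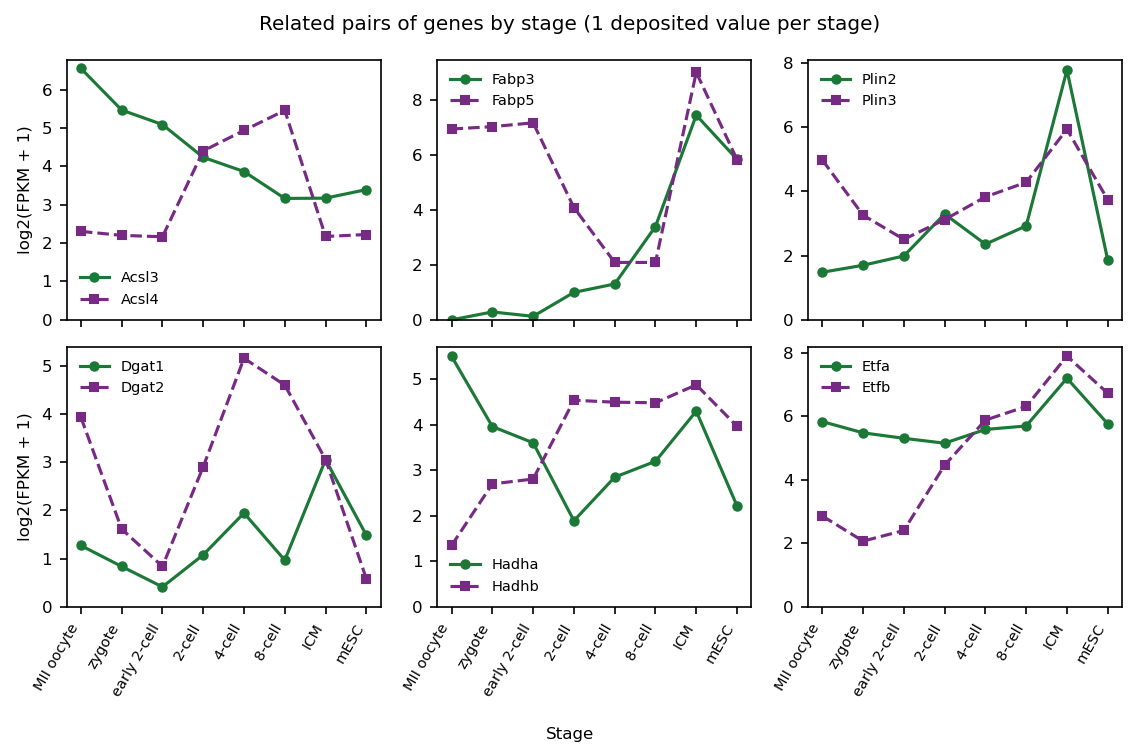
Levels of 6 pairs of related genes as log2(FPKM + 1) in each stage, 1 deposited value per stage, with the first gene as circles and the second as squares. The curves cross between early 2-cell and 2-cell for Acsl3 and Acsl4 and for Hadha and Hadhb, between 2-cell and 4-cell for Etfa and Etfb, and Plin2 lies above Plin3 at the 2-cell stage and in ICM, there at 219 against 60.2 FPKM.

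At the 8-cell stage the question was which genes change when Nr5a2 is knocked down. Of the 31 members, 1 rose, Fabp3 (1.57% of all 8170 genes tested rose), and 0 fell (0.698% fell) by limma at an adjusted p under 0.05. At an unadjusted p under 0.05 there were 5 members, Fabp3, Eci1, Acadl, Dgat2 and Decr1, against 20.6% of all genes. Cpt2, Acsl5 and Lipe were below the filter, which kept genes with at least 1 FPKM in 4 libraries, so 28 were tested. Their log2 fold changes were positive for 10 and negative for 18, with a median of -0.18, while 60.5% of all genes were positive, with a median of 0.12. With libraries scaled to 1 median the all-gene median moved to -0.01 and 7 members stayed positive, and Cpt1a, Acsl3 and Fabp5, each at 0.07, changed sign. RNA of whole embryos was measured, so fewer cells of a type and less RNA per cell cannot be told apart.

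Fabp3 stood at 2.74, 8.92, 4.21 and 12.6 FPKM in controls 1 to 4 and at 11.3, 57.3, 68.5 and 45.8 FPKM in knockdowns 1 to 4. Knockdowns 2, 3 and 4 were above all controls, and knockdown 1 was below control 4, so the groups overlapped. Means were 7.11 ± 4.50 FPKM in controls and 45.7 ± 24.8 FPKM in knockdowns (SD, n = 4 each), and limma put the rise at 2.45 on the log2 scale (SE 0.54, adjusted p = 0.0441). An exact two-sided permutation test on its values gave p = 0.0571, where the smallest possible is 0.0286. The call held in 2 of 8 limma fits with 1 library left out, without control 4 (adjusted p = 0.0482) and without knockdown 1 (0.0153). It was lost without each of the others, with adjusted p from 0.0661 without knockdown 3 to 0.134 without control 1. It was also lost with a pseudocount of 0.1 (limma adjusted p = 0.0562), with median scaling (0.0525), with quantile normalization (0.0550) and without the filter (0.168).

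Eci1 was the member whose groups did not overlap. It stood at 71.7, 64.3, 81.0 and 74.3 FPKM in controls 1 to 4 and at 50.3, 49.3, 31.3 and 45.0 FPKM in the knockdowns. Every knockdown value lay below every control, as was so for 3.45% of all genes in this direction, and 0 members were without overlap in the other direction (8.38%). The means were 72.8 ± 6.90 and 44.0 ± 8.78 FPKM (SD, n = 4 each). The log2 fold change, -0.73 (SE 0.19), missed the threshold (limma adjusted p = 0.0676). With median scaling it passed (limma adjusted p = 0.0464).

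Acadl stood at 45.4, 64.2, 47.9 and 57.7 FPKM in controls and at 58.8, 89.5, 119 and 74.1 FPKM in knockdowns. Knockdown 1 lay among the controls and the rest above them, with means of 53.8 ± 8.75 and 85.5 ± 25.9 FPKM (n = 4 each), and limma gave a log2 fold change of 0.62 (SE 0.23, adjusted p = 0.156). For Dgat2 the means were 51.2 ± 16.8 and 74.8 ± 12.4 FPKM (n = 4 each), a log2 fold change of 0.58 (limma adjusted p = 0.199). For Decr1 they were 2.29 ± 0.394 and 1.23 ± 0.834 FPKM (n = 4 each), a log2 fold change of -0.62 (limma adjusted p = 0.235). Groups overlapped for these 3 genes, and none passed the threshold.

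The other members did not pass the test either. Acadm, the member with the AAGGTCA match, lay between 132 and 153 FPKM in controls and between 104 and 137 in knockdowns (log2 fold change -0.21, limma adjusted p = 0.439). Fabp5 lay between 3.08 and 9.70 FPKM in controls and between 2.08 and 11.3 in knockdowns. The ratio of Fabp3 to Fabp5 ran from 0.468 to 4.08 in controls and from 5.06 to 8.43 in knockdowns. In knockdown 1, whose Fabp3 lay below that of control 4, the ratio of 5.43 came with the lowest Fabp5 value of all, 2.08 FPKM. Such ratios were neither tested nor counted over other genes, and both genes have near-identical copies. Plin2 spread widely, from 1.72 to 9.43 FPKM in controls and from 2.34 to 13.5 in knockdowns (log2 fold change 0.82, limma adjusted p = 0.376). In the shuttle, Cpt1a ran from 3.40 to 8.20 FPKM in controls and from 3.36 to 9.77 in knockdowns, and Slc25a20 from 28.8 to 73.7 and from 25.3 to 58.4. Etfa ran from 36.1 to 43.8 FPKM in controls and from 34.1 to 60.2 in knockdowns, and Etfb from 24.3 to 58.8 and from 18.3 to 46.1. Hadh and Hadha had log2 fold changes of -0.04 and -0.37, and Hadhb of -0.17.

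**Figure D4:**
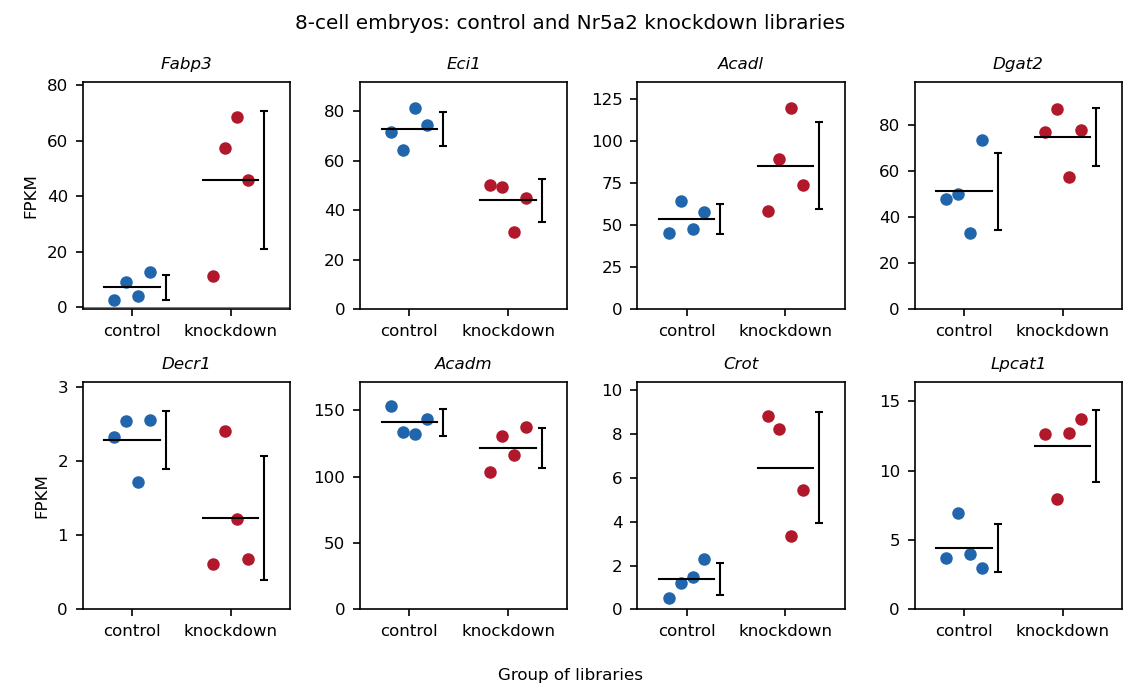
FPKM of 8 genes in 4 control (blue) and 4 Nr5a2 knockdown (red) 8-cell libraries, from left to right by replicate number, with the mean as a line and the SD as a bar; Crot and Lpcat1 are not among the 31. Eci1, Crot and Lpcat1 show no overlap between the groups, and for Fabp3 knockdown 1 at 11.3 FPKM lies below control 4 at 12.6 FPKM.

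Other genes of the pathway were read from 6 lists. In the list of carnitine, branched-chain and peroxisomal oxidation 1 of 21 tested rose and 0 fell, beside 1.57% and 0.698% of all genes: Crot, the peroxisomal carnitine octanoyltransferase, stood at 0.500, 1.22, 1.49 and 2.28 FPKM in controls and at 8.83, 8.23, 3.34 and 5.46 in knockdowns. All its knockdown values lay above all controls, as for 8.38% of all genes (log2 fold change 1.64, SE 0.33, limma adjusted p = 0.0353). The Crot call held in 6 of 14 alternative limma fits, which were 4 with another pseudocount or scaling and those without control 4 (adjusted p = 0.0417) and without knockdown 3 (0.0148). It was lost without each of the other libraries, with limma adjusted p from 0.0675 without knockdown 4 to 0.113 without control 1, without the filter (0.139) and with the replicate block (0.0784). In the list of droplet coat and lipase genes 1 of 12 tested rose and 0 fell: Lpcat1, a lysophosphatidylcholine acyltransferase, stood at 3.72, 6.92, 4.02 and 2.96 FPKM in controls and at 12.7, 7.95, 12.7 and 13.7 in knockdowns. Its groups did not overlap either (log2 fold change 1.26, SE 0.28, limma adjusted p = 0.0441). The Lpcat1 call held in 3 of 15 alternative limma fits, with a pseudocount of 5 (adjusted p = 0.0453), with a filter at 5 FPKM (0.0364) and without control 2 (0.0461). It was lost without each of the other libraries, with limma adjusted p from 0.0556 without knockdown 2 to 0.129 without control 1. It was also lost with a pseudocount of 0.1 (limma adjusted p = 0.0507), with quantile normalization (0.0616), with median scaling (0.0622), with the replicate block (0.103) and without the filter (0.137). None of the tested genes of uptake and binding (7), triglyceride synthesis (12), fatty acid synthesis (14) and regulators (10) was called. The list medians were 0.20 for the first, 0.36 for the droplet list and between 0.03 and 0.25 for the others, beside 0.12 for all genes.

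Sums of epiblast and stem cell markers were lower in every knockdown library than in every control, by a narrow margin between control 3 (561 FPKM) and knockdown 3 (550 FPKM). Sums of trophectoderm, oocyte and primitive endoderm markers overlapped between the groups, and none of these sums was tested. Trophectoderm markers, 8 genes with Elf5 listed at 0 in each library, summed to 83.1 to 109 FPKM in controls and 108 to 143 FPKM in knockdowns. The 9 epiblast and stem cell markers summed to 561 to 868 FPKM in controls and 257 to 550 FPKM in knockdowns. Single markers need not follow that sum. Of the 9, 7 were at 1 FPKM or more in each control and 6 to 8 in the knockdowns. Sox2 was listed at 0 in controls 2, 3 and 4 but, of the knockdowns, in knockdown 4 alone. Sperm markers summed to 7.27 FPKM in control 4, which had the highest control value of Fabp3, and to at most 0.414 FPKM in the other libraries. The part of these in the values of Fabp3, Eci1, Crot and Lpcat1 was not tested.

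In blastocysts the same was asked of Gata4, and 0 of the 31 members were called by limma. Of 8782 genes tested 0.00% rose and 0.0342% fell at an adjusted p under 0.05. At an unadjusted p under 0.05 there were 2 members, Acsl5 and Dgat2, against 2.30% of all genes. Acsl1, Acsl4 and Lipe were below the filter of 1 FPKM in 3 libraries, so 28 were tested, with 18 positive and 10 negative log2 fold changes and a median of 0.09 (all genes -0.02). That balance turned on single libraries: without knockdown 1 there were 11 positive of 28 with a median of -0.02 (all genes -0.16), and without control 2 there were 24 of 29 with a median of 0.34 (all genes 0.17). None of the 6 lists of other pathway genes held a called gene, with 28, 7, 10, 11, 18 and 11 genes tested in the order given above.

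Acsl5 stood at 2.44, 3.62 and 6.72 FPKM in controls and at 1.74, 1.05, 0.430 and 2.14 FPKM in knockdowns. It was the tested member lower in all knockdown libraries than in all controls (1.43% of all genes), at 4.26 ± 2.21 (SD, n = 3) and 1.34 ± 0.755 FPKM (SD, n = 4). The log2 fold change was -1.15 (SE 0.39, limma adjusted p = 1, unadjusted p = 0.00618). In a split by library kind made after seeing the data the difference for Acsl5 was -1.28 among libraries with Rn45s (2 controls and 2 knockdowns), while the libraries without it hold 1 control and give no replicate check. The exact permutation p was 0.0571, the smallest that 3 against 4 libraries allow.

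Dgat2 stood at 0.540, 3.08 and 7.54 FPKM in controls and at 0.354, 0.271, 1.40 and 0.562 FPKM in knockdowns. Control 1 lay among the knockdowns, and the log2 fold change was -1.24 (SE 0.42, limma adjusted p = 1). The Dgat2 value rested on single controls, at -0.65 without control 3 and -1.89 without control 1. Fabp3, with the third smallest p, stood at 1282, 2110 and 1295 FPKM in controls and at 3382, 2086, 1153 and 2669 FPKM in knockdowns (log2 fold change 0.51, SE 0.35, limma adjusted p = 1). The groups overlapped, and Fabp3 was the highest of the 31 genes in each library. Pnpla2 was the 1 member higher in all knockdowns than in all controls (0.945% of all genes), at 9.95 ± 0.213 (n = 3) and 10.9 ± 0.565 FPKM (n = 4), a log2 fold change of 0.11. Lipe, below the filter, lay between 0.302 and 0.589 FPKM in controls and between 0 and 0.134 in knockdowns.

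Levels also differed with the kind of library, for the members about as often as for all genes. Compared across groups, 16 of 28 members were lower in the 4 libraries with Rn45s (51.0% of all genes) and 0 were higher, by limma at an adjusted p under 0.05. The median log2 difference was -0.68 for the members and -0.64 for all genes. Acadl was 78.1 ± 26.1 FPKM with Rn45s (SD, n = 4) and 186 ± 22.4 without (SD, n = 3), a log2 difference of -1.25 (SE 0.25, limma adjusted p = 0.00659). Acadm was 50.1 ± 1.28 and 116 ± 18.4 FPKM, and Etfa 53.8 ± 4.71 and 119 ± 9.03 FPKM, with no overlap between the kinds. The share of all genes without overlap between the kinds was not computed. Fabp5 had the largest difference of the members, -1.81, at 11.6 ± 10.03 and 34.7 ± 7.09 FPKM. Pnpla2, Dgat1, Acads, Acaa1a and Acsl5 differed by 0.25 or less. Since 1 of 3 controls and 2 of 4 knockdowns lacked Rn45s, the kind was spread over the groups, and with it as a covariate 0 members were called.

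**Figure D5:**
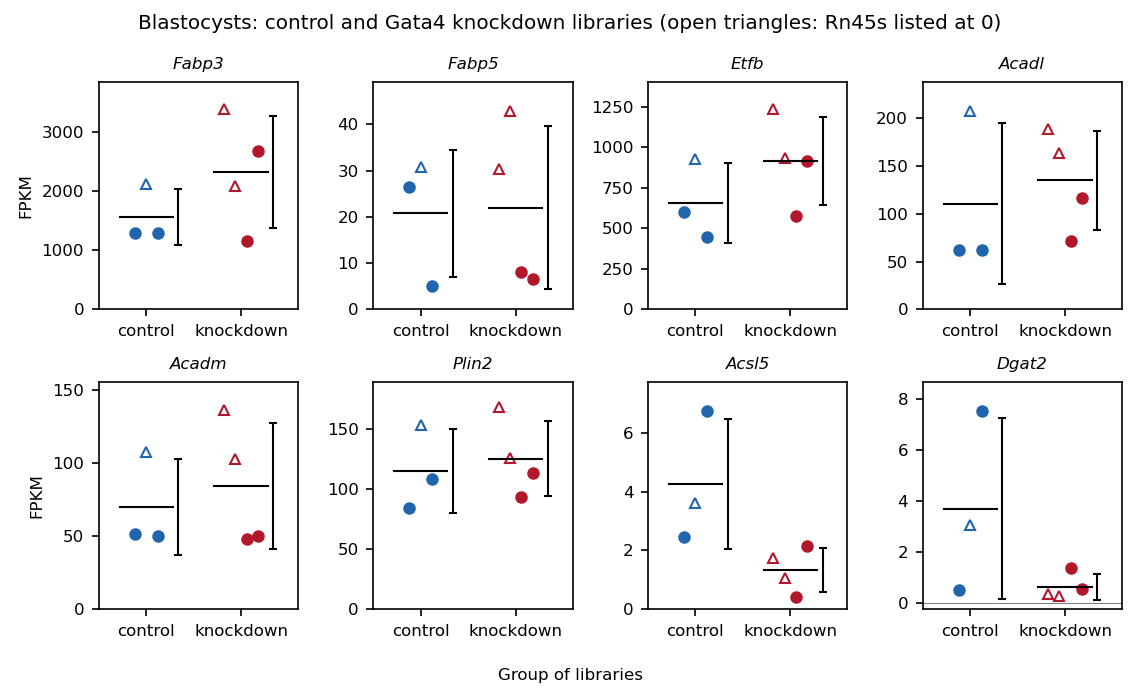
FPKM of 8 genes in 3 control (blue) and 4 Gata4 knockdown (red) blastocyst libraries, from left to right by replicate number, with the mean as a line and the SD as a bar; open triangles are the 3 libraries with Rn45s listed at 0. Acadl and Acadm separate by symbol and not by colour, and Acsl5 is lower in all 4 knockdown libraries. The share of all genes that separate by symbol was not computed.

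Set beside the ICM value of the stage table, which was normalised apart, whole control blastocysts held more Fabp3 (1282 to 2110 FPKM against 175) and less Fabp5 (5.09 to 30.7 FPKM against 519). Fabp3 was 48.4 to 254 times Fabp5 in control blastocysts, while Fabp5 was 2.96 times Fabp3 in ICM. Plin2 stood at 84.5 to 153 FPKM in control blastocysts beside 219 in ICM, and Etfb at 445 to 929 FPKM beside 237. Hadhb was 3.11 to 7.70 FPKM in control blastocysts and 28.4 in ICM. Hadhb has near-identical copies, and its values also differed between tables at the 8-cell stage, at 3.61 to 5.94 FPKM in injected controls and 21.4 in uninjected embryos. Fabp3, Fabp5 and Etfb have near-identical copies too, as given above, so their values in this comparison are uncertain as well. The trophectoderm marker sums given above differ between the 2 kinds of sample in the direction of Fabp3, and the part of cell type, injection, culture and table in these values was not tested.

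The other lists gave a wider view of stage. Of all genes 7.65% were higher and 6.03% lower in ICM than in 8-cell embryos, and 3.02% were higher and 10.5% lower in mESC than in ICM. Of the 37 genes of carnitine, branched-chain and peroxisomal oxidation 14 were higher and 2 lower in ICM than in 8-cell embryos, and 0 were higher and 11 lower in mESC than in ICM. In the droplet list 3 of 23 were higher and 1 was lower in ICM, and in the list of uptake and binding 2 of 16 were higher and 0 lower. Triglyceride synthesis had 3 of 17 higher and 3 lower, fatty acid synthesis 4 of 20 higher and 1 lower, and regulators 1 of 19 higher and 2 lower. Several of these counts are of 1 to 3 genes, too few to be set firmly above or below the shares of all genes.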

How the data were processed

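The authors deposited FPKM values in 3 tables. Per the submitters' processing notes, CASAVA 1.8, STAR 2.4.0 and build mm9 were used, with Cufflinks 2.2.1 named for part of the samples. How samples of a stage were combined into 1 value is not given in the sources used here. The 31 members were matched by symbol, and 30 empty entries of the MII oocyte column were left out. Genes reaching 1 FPKM in 4 or more 8-cell libraries, or in 3 or more blastocyst libraries, were tested, and limma 3.58.1 (R 4.3.3) with a trend in the prior variance was run on log2(FPKM + 1), which understates the change of low genes. P-values were Benjamini-Hochberg adjusted over all genes tested, with a threshold of 0.05. FPKM rests on unknown read totals, so no counting error is given. Near-identical copies were sought with BLAST 2.17.0 (95% identity over 50% of the coding sequence). Any member could be named; full statistics went to members called, to the 3 smallest p of each knockdown and to the 6 highest and 6 widest-ranging members. Other pathway genes named were those called and up to 4 a list with the highest level or range. The members and lists were chosen with earlier results of these data known. Alternatives were other pseudocounts, filters and scalings, a replicate block, library kind and leaving out each library. Exact permutation tests and plots used Python 3.11.15, scipy 1.17.1 and matplotlib 3.10.9.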

Additional observations from a re-analysis of the deposited data

Results flagged for a closer look

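In groups of 4 libraries, 84 combinations of member and group were examined for a library far from the other three on the log2(FPKM + 1) scale, and 5 had one. The limit used is passed by chance in about 5% of groups. In the 8-cell controls Eci2 stood at 13.5 FPKM in control 3 and at 9.13 to 9.39 in the others, and Acsl4 at 21.0 FPKM in control 4 and at 9.76 to 11.0 in the others. In the Nr5a2 knockdown libraries Slc25a20 stood at 58.4 FPKM in knockdown 4 and at 25.3 to 28.1 in the others, and Pnpla2 at 15.3 FPKM in knockdown 3 and at 6.23 to 7.20 in the others. In the Gata4 knockdown libraries Cpt2 stood at 6.23 FPKM in knockdown 4 and at 11.2 to 12.3 in the others. None of these members was called in its knockdown.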

How the results depend on the processing

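In the Nr5a2 knockdown 185 genes were called in all, against 108 with a pseudocount of 0.1, 11 without the filter on low values, and 21 (without control 1) to 285 (without knockdown 3) with 1 library left out. Of the members 1 was called, against 0 with a pseudocount of 0.1, 0 without the filter, 0 with quantile normalization and 0 to 1 with 1 library left out. With median scaling the 1 member called was Eci1 in place of Fabp3. Median scaling called 65 genes higher and 80 lower in place of 128 and 57, and quantile normalization 68 and 71. In the Gata4 knockdown 3 genes were called, against 1 with a pseudocount of 0.1, 0 without the filter, 0 with a filter at 5 FPKM, 0 with median scaling, 0 with quantile normalization, 0 with library kind as a covariate, and 1 (without control 1) to 27 (without knockdown 2) with 1 library left out. Members called in the Gata4 knockdown were 0 in each of these fits. Fits within library kind, added after seeing the data, called 0 genes with Rn45s and 1 without; the latter sets 1 control against 2 knockdowns, assumes that the lone control varies like the knockdowns, and supports nothing here. Of the counts per stage step 1 moved by over 1.5 times: with stages scaled to 1 median 13 members in place of 20 were lower in mESC than in ICM. No share of all genes was computed at that scaling. The cause of these shifts was not tested.

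With the replicate number as a block 55 genes were called in the Nr5a2 knockdown and 18 in the Gata4 knockdown, with Fabp3 still called (limma adjusted p = 0.0289) and Crot and Lpcat1 not. The numbers were not taken to pair the libraries, since deviations of same-numbered libraries correlated at 0.04, 0.08, -0.11 and -0.00 in the 8-cell table and at -0.10, 0.28 and 0.02 in the blastocyst table. Depth limits low genes such as Decr1, Lipe and Acsl5, and stage values have no replicate check.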

Other observations

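Several pathway genes outside the 31 had wide stage ranges, each given as the authors' 1 value per stage. Bscl2, which encodes the droplet assembly protein seipin, stood at 233 FPKM in MII oocytes and 2.78 in 8-cell embryos, and Lpcat1 at 110 and 5.39. Cd36, a fatty acid uptake receptor, was 33.4 FPKM in MII oocytes and was listed at 0 in ICM and mESC. Elovl5, an elongase of polyunsaturated fatty acids, was 183 FPKM in MII oocytes and 3.89 in 2-cell embryos. Elovl6, an elongase of saturated fatty acids, went the other way, from 0.0430 FPKM in MII oocytes to 47.4 in 8-cell embryos.

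Agpat9, a glycerol-3-phosphate acyltransferase that starts triglyceride synthesis, was 0.141 FPKM in MII oocytes, 37.2 in 2-cell and 114 in 8-cell embryos, 31.5 in ICM and 0.0951 in mESC, and Dgat2, at its last step, was also higher in 4-cell and 8-cell embryos than in ICM and mESC. Dbi, the acyl-CoA binding protein, was 332 FPKM in MII oocytes, 10.2 in 8-cell embryos, 139 in ICM and 1567 in mESC, above its ICM level where 20 of the 31 genes were below theirs. Me1, the cytosolic malic enzyme that supplies NADPH, was 44.9 FPKM in MII oocytes, 264 in zygotes and 3.36 in 4-cell embryos.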
